A study of Mus musculus with 6 samples.

Results

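The genes described here are the Wnt ligands, their frizzled receptors and co-receptors, the secreted Wnt inhibitors, and a set of intracellular and feedback components, in growing 3T3-L1 cells with and without Ube3d. They were taken by symbol from the deposited gene table: every Wnt, Fzd, Sfrp1 to Sfrp5 and Dkk1 to Dkk4 entry, and 19 further named genes. This gave 56 of the 24421 listed genes. 3T3-L1 is a mouse embryonic fibroblast line used as a preadipocyte model. Libraries came from Ube3d knockout (KO) cells and from wild-type (WT) cells, with 3 per genotype that the titles call biological replicates. Both genotypes were grown undifferentiated in high-glucose medium with serum and kept subconfluent. The sources used here do not say how Ube3d was disrupted or whether the KO cells are a single clone. If the replicates were not separate cultures, the p-values measure only technical spread. With a single KO clone, the p-values measure spread between its libraries and not between separately made KO lines.

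Wnt proteins are secreted lipid-modified ligands that bind frizzled receptors together with a co-receptor. In the canonical branch, frizzled and LRP5 or LRP6 stop the AXIN and APC complex from destroying beta-catenin, which then acts with TCF/LEF factors on target genes. Other branches act through ROR and RYK receptors, small GTPases and calcium. In preadipocytes canonical Wnt signalling, with Wnt10b as the classical ligand, is known to hold back fat cell formation.

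The libraries held 25267434, 27214306 and 28042970 gene counts in KO cells and 23767181, 29389480 and 26862276 in WT cells. Ube3d, listed as Ube2cbp, averaged 1.89 ± 0.31 CPM in KO cells and 6.79 ± 0.80 CPM in WT cells (log2 fold change −1.86, SE 0.15, edgeR adjusted p = 6.6e-18), and which of its exons the knockout removes is not given. All 10 fibroblast and preadipocyte markers passed the count filter, and their summed level was 11188 to 11387 CPM in KO cells and 12259 to 12579 CPM in WT cells. Of these markers 7 fell and 2 rose: Col1a1 was 2.27-fold lower, Ly6a 2.22-fold lower and Pdgfrb 1.62-fold lower, Dlk1, a preadipocyte marker, was 2.17-fold higher, and Vim, the most abundant in the sum, did not pass the test. None of 6 mature adipocyte and none of 5 epithelial markers passed. Macrophage markers, of which 3 of 5 passed, summed to 6.86 to 7.79 CPM in KO cells and 5.12 to 6.36 CPM in WT cells, with Adgre1 at 0 counts and Ptprc at 2 counts or fewer. Cd68 in this list rose (log2 fold change 0.71, edgeR adjusted p = 5.2e-04). Endothelial markers, of which 1 of 5 passed, summed to 1.45 to 2.42 CPM in KO cells and 0.600 to 1.08 CPM in WT cells, where Vwf rose 4.37-fold (edgeR adjusted p = 4.4e-07). Vwf had 24, 51 and 28 counts in the KO libraries and 6, 10 and 7 in WT cells. It passed the count filter only with its higher KO libraries counted, so this list could hardly have shown a fall. The part of these marker changes in the Wnt results was not tested. In bulk RNA, fewer cells of a type and less RNA per cell cannot be told apart. Levels are CPM, a count scaled to the TMM-adjusted library size, as mean ± SD with n = 3 per genotype. Each fold change compares KO with WT, and its SE is in log2 units.

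The KO cells carried less mRNA of the secreted inhibitor Sfrp2, of the receptors Fzd2 and Fzd4 and of the co-receptor Ror1. They carried more of the ligands Wnt7a, Wnt2b and Wnt4, of the co-receptor Lrp5 and of the nuclear factor Lef1. Decreases under 1.5-fold included Wnt5a, the most abundant ligand per length in both genotypes, and Ryk, Tcf7l1 and Ctnnb1. Fzd3 and Znrf3 rose by less than 1.5-fold. Of the 56 genes, 29 had enough counts to test, 9 were higher and 11 were lower in KO cells, and 9 did not pass the test (edgeR quasi-likelihood test, adjusted p under 0.05). The called share over all 12947 tested genes was 61.4%, with 30.3% higher and 31.2% lower, so 20 of 29 is close to the background. A called change of at least 1.5-fold was seen for 11 of the 29, 7 higher and 4 lower, where the share over all tested genes was 15.9%. After subtraction of each chromosome's median log2 change, 9 of these 11 were still past 1.5-fold, without Lef1 and Lrp5. The same share after subtraction was not taken over all tested genes, so these 9 have no background to stand beside. Of the 9 higher genes 2 lie on chromosomes 3, 5 or 12, against 29.6% of all higher genes, and of the 11 lower genes 0 lie on chromosome 2, against 14.8% of all lower genes. Chromosomes 3, 5, 12 and 2 had the most extreme median log2 changes in these same data, at 0.30, 0.19, 0.19 and −0.24. The 2 genotypes did not overlap for 22 of the 29, against 64.3% of all tested genes. The median log2 change was −0.06 for the 29 genes and 0.004 for all tested genes. These 29 passed the count filter in part through the genotype in which they were high, so their counts do not describe all 56. Of the called genes, Wnt7a, Wnt5b and Nkd2 passed only with the KO libraries counted, and Fzd4 only with the WT libraries.

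**Figure D1:**
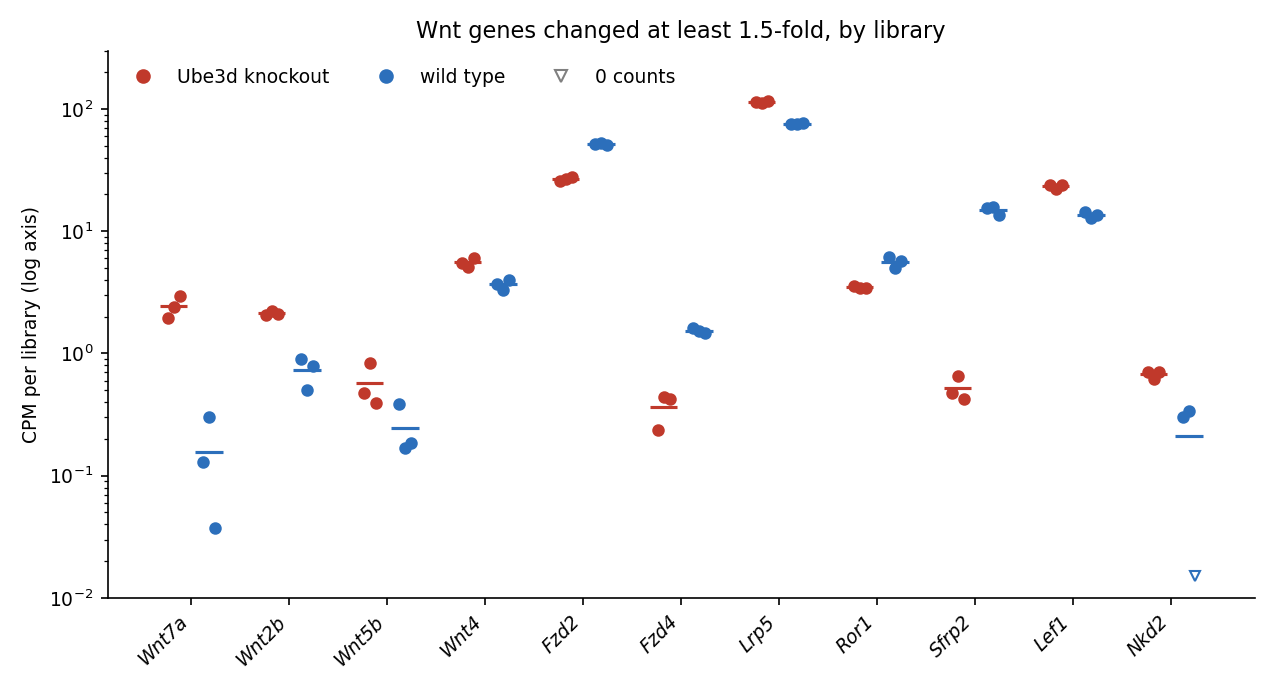
CPM on a log axis for the 11 Wnt genes called with a change of at least 1.5-fold, with a point per library and a bar at the mean of the 3 KO (red, left) and 3 WT (blue, right) libraries. An open triangle marks a library with 0 counts. The genotypes do not overlap for any of the 11 genes. Nkd2 and Wnt5b stay below 1 CPM in every library.

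The 3 genes that changed at least 4-fold were Sfrp2, Wnt7a and Fzd4, and their promoter windows are shown as the sequence context of these changes. Each window runs from 250 bases before to 50 bases after the RefSeq start (GRCm38.p6), 5′ to 3′ on the gene's strand, with the bases from the start onwards in capitals. The Sfrp2 window is chr3:83766071-83766370 on the plus strand, the Wnt7a window is chr6:91411304-91411603 on the minus strand, and the Fzd4 window is chr7:89404116-89404415 on the plus strand.
Sfrp2: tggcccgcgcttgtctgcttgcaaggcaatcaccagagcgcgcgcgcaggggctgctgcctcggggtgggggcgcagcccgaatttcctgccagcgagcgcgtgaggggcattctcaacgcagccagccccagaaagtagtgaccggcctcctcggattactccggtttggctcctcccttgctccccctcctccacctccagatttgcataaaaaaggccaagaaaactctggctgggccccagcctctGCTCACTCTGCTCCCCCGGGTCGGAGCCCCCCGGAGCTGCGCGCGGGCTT
Wnt7a: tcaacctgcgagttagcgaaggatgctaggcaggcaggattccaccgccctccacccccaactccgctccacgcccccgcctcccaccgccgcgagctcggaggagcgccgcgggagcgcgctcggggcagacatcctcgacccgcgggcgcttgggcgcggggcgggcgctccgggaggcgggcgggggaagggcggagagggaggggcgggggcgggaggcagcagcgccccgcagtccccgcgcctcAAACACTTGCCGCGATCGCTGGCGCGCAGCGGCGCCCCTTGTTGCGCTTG
Fzd4: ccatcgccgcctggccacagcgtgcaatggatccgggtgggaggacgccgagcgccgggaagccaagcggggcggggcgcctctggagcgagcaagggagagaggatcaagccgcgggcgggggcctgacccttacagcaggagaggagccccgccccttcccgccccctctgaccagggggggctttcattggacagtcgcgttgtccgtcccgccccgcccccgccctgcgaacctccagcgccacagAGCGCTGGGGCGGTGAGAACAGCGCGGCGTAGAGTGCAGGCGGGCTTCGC
All 3 windows are rich in G and C, with 66.0% for Sfrp2, 76.0% for Wnt7a and 72.7% for Fzd4, against a median of 53% over 32544 RefSeq promoter windows. They hold 22, 42 and 32 CG dinucleotides in that order, against a median of 7. The TCF/LEF core letters CTTTGA or CTTTGT, searched on both strands, are in none of the 3 windows and in 31.3% of all windows. The GC box letters GGGCGG, on both strands and with overlapping matches counted, occur 6 times in the Wnt7a window and 8 times in the Fzd4 window but not in the Sfrp2 window, and 35.9% of all windows hold at least 1. Of the 29 tested genes, 20 have an entry in the promoter table, and a TCF/LEF core is in 8 of their 28 windows. These matches describe letters in a window and do not show that a factor binds there.

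Among the 19 ligands, 6 could be tested, of which 4 rose, 1 fell and 1 did not pass the test. The called share over all tested genes, for this and the role groups below, was 61.4%, with 30.3% higher and 31.2% lower. Wnt7a and Wnt5b passed the count filter only with their higher KO libraries counted, so this tally favours ligands that rose. Wnt7a, a ligand known for its roles in limb and muscle, had 50, 65 and 83 counts in the KO libraries, against 3, 9 and 1 in WT cells. Its level was 2.43 ± 0.50 CPM in KO cells and 0.156 ± 0.135 CPM in WT cells (log2 fold change 3.87, SE 0.35, edgeR adjusted p = 1.5e-15). Every KO library was well above every WT library, but the size of the change rests on 13 WT counts. Without WT replicate 2 the log2 fold change was 4.85. In the deposited annotation (GRCm38) Wnt7a lies at chromosome 6, 91363983 to 91411369 on the minus strand, with 4 exon blocks. The nearest gene upstream on its strand, 4930471M09Rik, ends 19.1 kb away and averaged 0.115 ± 0.118 CPM in KO cells and 0.176 ± 0.056 CPM in WT cells.

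Wnt2b, which acts through beta-catenin, had 2.08, 2.24 and 2.10 CPM in the KO libraries, against 0.899, 0.505 and 0.785 CPM in WT cells. It rose 2.97-fold (SE 0.25, edgeR adjusted p = 1.4e-07). Wnt2b lies at chromosome 3, 104944805 to 104961709 on the minus strand, and the tested genes of that chromosome had a median log2 change of 0.30. Its own change less that median was 1.27. Its upstream neighbour on the same strand, Cttnbp2nl, ends 40.2 kb away and averaged 98.1 ± 3.5 CPM in KO cells and 74.9 ± 2.9 CPM in WT cells. The part of reads running on from it was not tested, since the deposited downstream-of-gene counts carry no gene names. Wnt4, a ligand of kidney and gonad development, had 5.54, 5.06 and 6.09 CPM in the KO libraries, against 3.73, 3.33 and 3.96 CPM in WT cells. It rose 1.52-fold (SE 0.13, edgeR adjusted p = 6.9e-05), with no overlap between the genotypes. Wnt5b, reported to promote adipogenesis in 3T3-L1 cells, had 12, 23 and 11 counts in the KO libraries, against 9, 5 and 5 in WT cells. Its 2.36-fold rise (SE 0.45, edgeR adjusted p = 0.013) is the least secure of the ligands. Without KO replicate 2 it was 0.83 on the log2 scale with an adjusted p of 0.18, without WT replicate 2 it was 1.01 with 0.081, and without WT replicate 3 it was 1.09 with 0.060, all by edgeR. Erc1, the upstream neighbour of Wnt5b on its strand, ends 26.4 kb away. Erc1 averaged 110 ± 3 CPM in KO cells and 128 ± 2 CPM in WT cells, and reads running on from it were not tested.

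Wnt5a, the ligand best known for signalling through ROR2 without beta-catenin, was the most abundant ligand per length in both genotypes. It had 30.07, 30.04 and 29.75 CPM in the KO libraries, against 40.18, 40.10 and 39.68 CPM in WT cells. The replicates lay within a fraction of a CPM of each other, closer than counting error at these counts would give. Their SDs therefore understate the spread. Wnt5a fell 1.33-fold (SE 0.05, edgeR adjusted p = 1.5e-10). Per kilobase of exon its level was 6.85 ± 0.04 CPM in KO cells and 9.14 ± 0.06 CPM in WT cells. The next ligand in that order was Wnt4, at 1.46 ± 0.13 CPM per kilobase in KO cells and 0.961 ± 0.083 in WT cells. In KO cells Wnt7a (0.766 ± 0.156) and Wnt2b (0.599 ± 0.024) followed, and their difference was about the SD of Wnt7a. Wnt9a, the sixth tested ligand, had 0.448 ± 0.081 CPM in KO cells and 0.622 ± 0.131 CPM in WT cells (log2 fold change −0.46, SE 0.37, edgeR adjusted p = 0.28).

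Between the genotypes the make-up of the ligand pool differed, while its sum differed by little. Summed over the 19 ligands, the level was 10.6 ± 0.13 CPM per kilobase in KO cells and 11.01 ± 0.16 in WT cells, with the KO libraries all below the WT libraries. Wnt5a made up 64.5% ± 1.1 of that sum in KO cells and 83.0% ± 0.8 in WT cells. Wnt4 made up 13.7% ± 1.2 in KO cells and 8.73% ± 0.80 in WT cells, Wnt7a 7.20% ± 1.39 in KO cells and 0.446% ± 0.387 in WT cells, and Wnt2b 5.64% ± 0.22 in KO cells and 1.85% ± 0.50 in WT cells. Shares were derived from the same levels and carry no separate test.

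**Figure D2:**
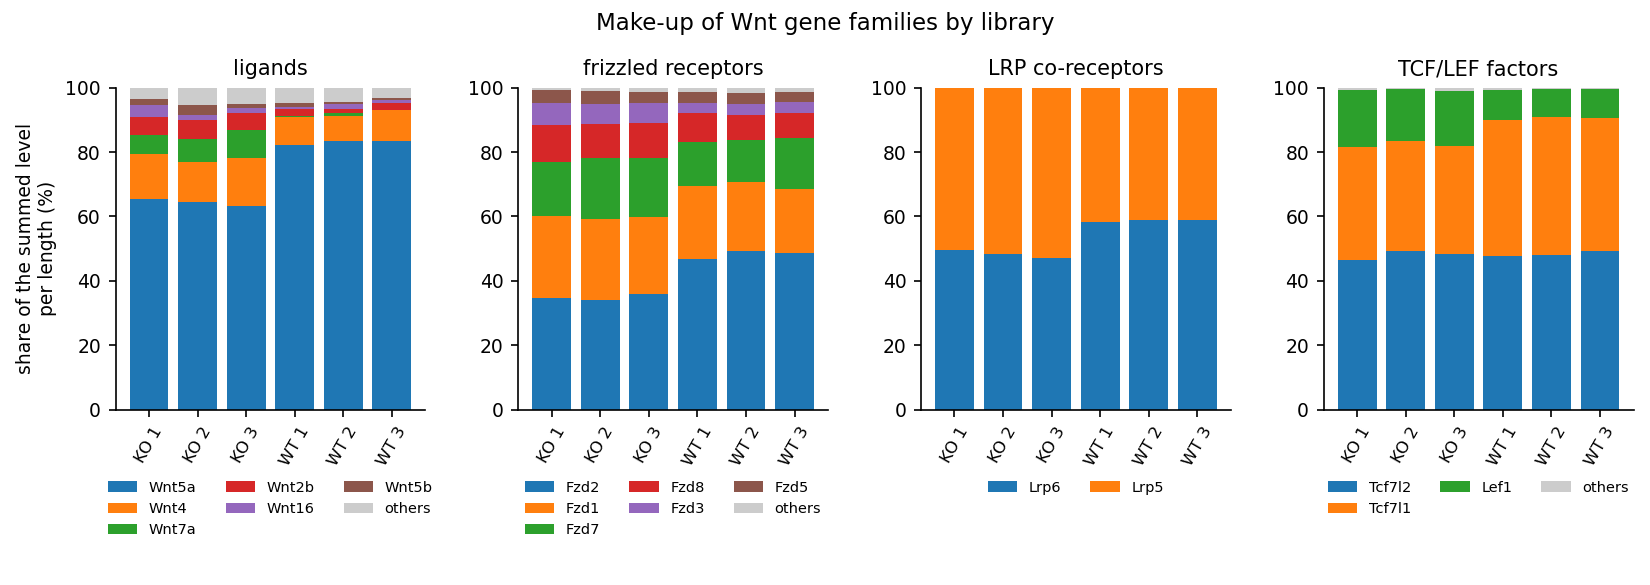
Share in percent of the summed level per length within 4 Wnt gene families, with a stacked bar per library (KO libraries left, WT libraries right). Genes whose mean share is under 2% in both genotypes are pooled as others. Wnt5a makes up 63.3% to 65.6% of the ligand sum in the KO libraries and 82.1% to 83.5% in WT cells, and Fzd2 34.0% to 36.0% of the frizzled sum in KO cells and 46.7% to 49.3% in WT cells.

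The other 13 ligands had too few counts to test. Wnt3a, Wnt7b, Wnt9b and Wnt11 had 0 counts in all 6 libraries, where a floor of 3 counts per library corresponds to 0.101 to 0.128 CPM. This floor covers counting error only. Wnt10b, the ligand most tied to the block of adipogenesis, had 6 counts over the KO libraries and 7 over WT, Wnt6 had 18 in KO cells and 19 in WT cells, and Wnt10a had 1 in each genotype. Wnt16 had the highest single count among the untested members, with 17, 8 and 7 counts in the KO libraries and 2, 8 and 5 in WT cells. Wnt8b had 7, 9 and 8 counts in the KO libraries and 1, 3 and 1 in WT cells, and it was called in a fit with no count filter (log2 fold change 2.16, SE 0.78, edgeR adjusted p = 0.015). Counts of the remaining ligands, Wnt1, Wnt2, Wnt3 and Wnt8a, were 6 or fewer in every library.

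Of the 10 frizzled receptors, 7 could be tested, of which 3 fell, 1 rose and 3 did not pass the test. Fzd2, encoded by a single exon at chromosome 11, 102604431 to 102608058 on the plus strand, had 25.8, 26.9 and 28.0 CPM in the KO libraries, against 52.1, 53.0 and 50.6 CPM in WT cells. It fell 1.93-fold (SE 0.05, edgeR adjusted p = 1.5e-26), and the genotypes lay far apart relative to their spread. Fzd2 was the most abundant frizzled per length in both genotypes, at 7.42 ± 0.31 CPM per kilobase in KO cells and 14.3 ± 0.3 in WT cells. Fzd4, which is also the receptor of the non-Wnt ligand Norrin, had 6, 12 and 12 counts in the KO libraries, against 38, 45 and 39 in WT cells. Its level was 0.368 ± 0.114 CPM in KO cells and 1.53 ± 0.09 CPM in WT cells, so Fzd4 was 4.09-fold lower (SE 0.31, edgeR adjusted p = 5.4e-08). Fzd4 lies at chromosome 7, 89404366 to 89410110 on the plus strand, with 2 exon blocks. Fzd1 fell 1.21-fold (SE 0.06, edgeR adjusted p = 1.4e-04), to 23.1 ± 0.8 CPM in KO cells, against 27.9 ± 2.6 CPM in WT cells. Fzd3, known for axon guidance and planar polarity, was the only tested frizzled that rose, with 17.8, 17.5 and 17.1 CPM in the KO libraries, against 13.1, 12.6 and 13.0 CPM in WT cells (1.36-fold, SE 0.07, edgeR adjusted p = 6.0e-07).

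Fzd7, Fzd8 and Fzd5 overlapped between the genotypes. Fzd7 averaged 18.5 ± 1.8 CPM in KO cells and 20.2 ± 1.8 CPM in WT cells (log2 fold change −0.12, SE 0.07, edgeR adjusted p = 0.13). Without KO replicate 2 the Fzd7 difference was called, at −0.19 with an adjusted p of 0.036, and without WT replicate 2 it was called at −0.20 with 0.028, both by edgeR. Fzd8 averaged 7.76 ± 0.10 CPM in KO cells and 8.14 ± 0.85 CPM in WT cells (log2 fold change −0.06, SE 0.10), and Fzd5 5.69 ± 0.40 CPM in KO cells and 6.54 ± 0.62 CPM in WT cells (−0.20, SE 0.12). Fzd6 and Fzd10 had 0 counts in every library, and Fzd9 had 17 counts over the KO libraries and 6 over WT. The summed frizzled level was 21.2 ± 0.7 CPM per kilobase in KO cells and 29.7 ± 1.0 in WT cells. Fzd2 supplied 34.9% ± 1.0 of it in KO cells and 48.2% ± 1.4 in WT cells. In KO cells the order per length was Fzd2, Fzd1 (5.28 ± 0.18 CPM per kilobase), Fzd7 (3.84 ± 0.37) and Fzd8 (2.32 ± 0.03), and neighbours in this order lay apart by more than their SDs. WT cells had the same first 4 genes in the same order.

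The co-receptors were all testable, and 1 rose, 2 fell and 2 did not pass the test. Lrp5, a co-receptor of canonical signalling, had 113, 112 and 116 CPM in the KO libraries, against 76.1, 75.5 and 76.2 CPM in WT cells. Its rise of 0.59 in log2 units (SE 0.04, edgeR adjusted p = 1.9e-23) was 0.48 after subtraction of the chromosome 19 median. Its paralogue Lrp6 overlapped between the genotypes, with 193 ± 8 CPM in KO cells and 195 ± 3 CPM in WT cells (log2 fold change −0.02, SE 0.03, edgeR adjusted p = 0.61). Per kilobase, Lrp5 made up 51.7% ± 1.3 of the pair in KO cells and 41.3% ± 0.4 in WT cells. The KO libraries, at 50.5% to 53.0%, were near an even split, so the order of the pair in KO cells is not secure. Ror1, a receptor tyrosine kinase family member that binds Wnt5a, had 3.58, 3.41 and 3.45 CPM in the KO libraries, against 6.17, 4.98 and 5.68 CPM in WT cells. It fell by 0.68 on the log2 scale (SE 0.13, edgeR adjusted p = 1.0e-05). Ror2 had 6.20 ± 0.42 CPM in KO cells and 5.45 ± 0.40 CPM in WT cells (log2 fold change 0.19, SE 0.12, edgeR adjusted p = 0.15). Ryk, a Wnt-binding kinase-like receptor and the most abundant co-receptor per length, had 109, 106 and 105 CPM in the KO libraries, against 135, 130 and 135 CPM in WT cells (1.25-fold lower, SE 0.03, edgeR adjusted p = 2.0e-13).

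**Figure D3:**
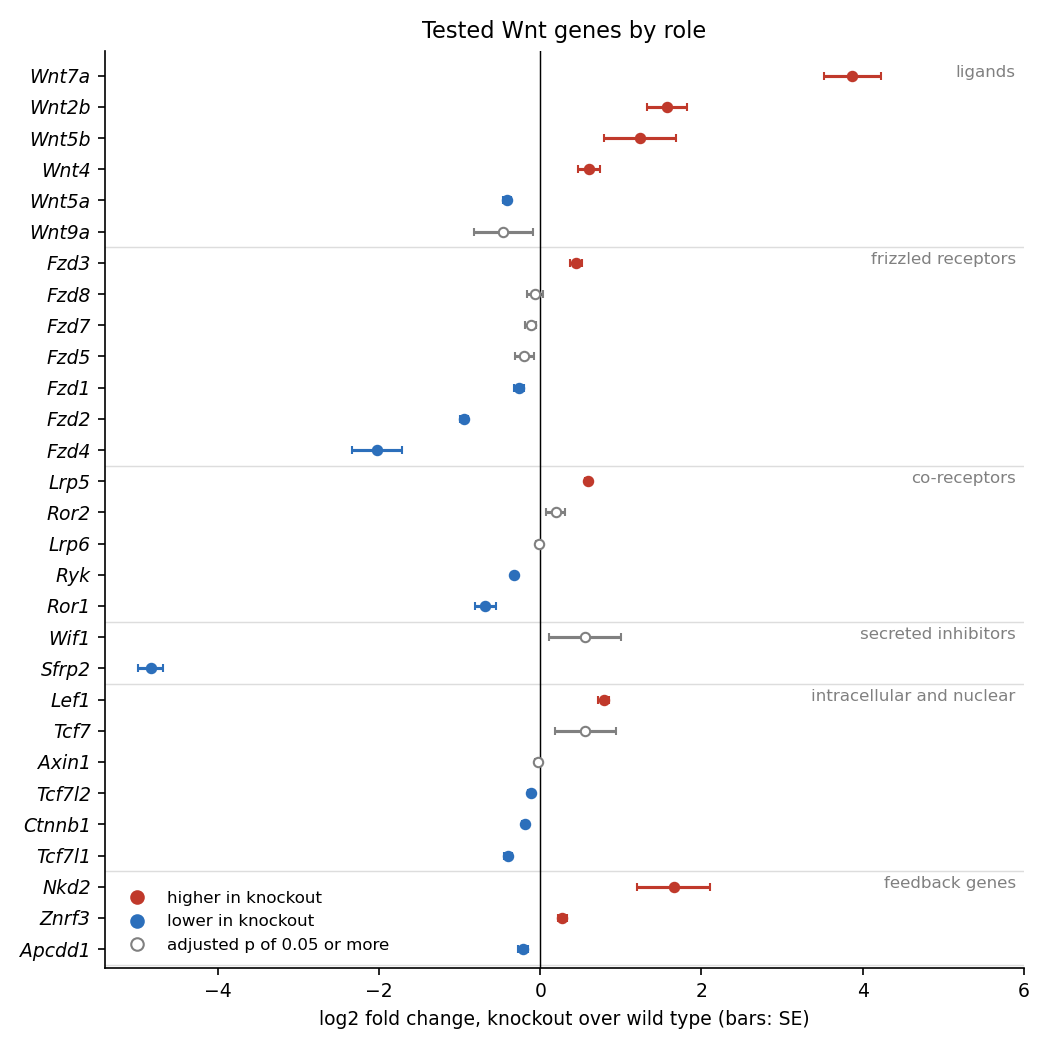
Log2 fold change, KO over WT, with the SE as bars, for the 29 tested Wnt genes grouped by role and ordered by size. Red points are higher and blue points lower in KO cells at an adjusted p under 0.05, and open grey points did not pass. Changes run from −4.84 for Sfrp2 to 3.87 for Wnt7a.

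The summed secreted inhibitor level was lower in KO cells, and Sfrp2 carried most of it in WT cells. Sfrp2 encodes a soluble protein with a frizzled-like Wnt-binding domain. Sfrp2 had 12, 18 and 12 counts in the KO libraries, against 361, 471 and 366 in WT cells. The 3 KO libraries were at 0.472, 0.660 and 0.427 CPM and the WT libraries at 15.5, 15.9 and 13.7 CPM. Sfrp2 was thus 28.6-fold lower (log2 fold change −4.84, SE 0.16, edgeR adjusted p = 4.5e-39), and the genotypes lay far apart. Sfrp2 lies at chromosome 3, 83766321 to 83774314 on the plus strand, with 3 exon blocks. Its direction was opposite to the chromosome 3 median of 0.30, and the change less that median was −5.14. In WT cells Sfrp2 made up 96.6% ± 0.2 of the summed level of the 9 secreted inhibitors. That sum was 0.726 ± 0.097 CPM per kilobase in KO cells and 7.76 ± 0.60 in WT cells. Wif1, which binds Wnts directly, had 0.441 ± 0.146 CPM in KO cells and 0.308 ± 0.161 CPM in WT cells (log2 fold change 0.56, SE 0.45, edgeR adjusted p = 0.28). Dkk3 had 25 counts over the KO libraries and 21 over WT, too few to test. The same holds for Sfrp5 (9 counts in KO cells and 2 in WT cells), Dkk4 (9 in KO cells and 3 in WT cells), Sfrp4 (5 in KO cells and 1 in WT cells) and Sfrp1 (0 in KO cells and 1 in WT cells). Dkk1 and Dkk2, which block LRP5 and LRP6, had 0 counts in every library.

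Inside the cell, 1 of 6 components rose, 3 fell and 2 did not pass the test. Ctnnb1, which encodes beta-catenin and was the most abundant of all 56 genes per length, had 418, 426 and 420 CPM in the KO libraries, against 492, 474 and 480 CPM in WT cells. This 1.14-fold decrease (SE 0.03, edgeR adjusted p = 2.6e-08) was small but without overlap. Beta-catenin is controlled mainly as a protein, which these counts do not measure. Axin1, the scaffold of the destruction complex, averaged 88.7 ± 0.7 CPM in KO cells and 90.8 ± 2.5 CPM in WT cells (log2 fold change −0.03, SE 0.04, edgeR adjusted p = 0.43).

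Among the TCF/LEF factors Lef1 rose, Tcf7l1 and Tcf7l2 fell, and Tcf7 did not pass the test. Lef1 had 24.0, 22.2 and 23.8 CPM in the KO libraries, against 14.3, 12.8 and 13.5 CPM in WT cells. It rose 1.73-fold (SE 0.07, edgeR adjusted p = 5.5e-16). Lef1 also lies on chromosome 3, at 131110297 to 131224357 on the plus strand, and its log2 change of 0.79 was 0.49 after subtraction of the chromosome median. Tcf7l1, known chiefly as a repressor, had 37.7, 37.3 and 36.6 CPM in the KO libraries, against 49.9, 49.6 and 47.8 CPM in WT cells (1.32-fold lower, SE 0.05, edgeR adjusted p = 3.9e-11). Its exons overlap 84 bases of Gm15401 on the other strand, which was also lower (log2 fold change −0.51), and the strand setting of the counting is not given. Tcf7l2 averaged 81.9 ± 3.5 CPM in KO cells and 88.9 ± 0.9 CPM in WT cells (1.09-fold lower, SE 0.04, edgeR adjusted p = 0.0056), and this call was lost without KO replicate 1 (edgeR adjusted p = 0.075). Tcf7 was low, with 0.629 ± 0.189 CPM in KO cells and 0.434 ± 0.153 CPM in WT cells (log2 fold change 0.56, SE 0.38, edgeR adjusted p = 0.19). Of the summed TCF/LEF level per length, Lef1 made up 16.9% ± 0.85 in KO cells and 9.09% ± 0.41 in WT cells, Tcf7l1 34.4% ± 0.8 in KO cells and 42.1% ± 0.7 in WT cells, and Tcf7l2 48.0% ± 1.5 in KO cells and 48.3% ± 0.8 in WT cells.

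The feedback genes, which are induced by canonical Wnt signalling in many tissues and dampen it, had few or no counts for 4 of 7 members. Axin2, the most widely used reporter of the pathway, had 1, 0 and 0 counts in the KO libraries, against 1, 0 and 1 in WT cells. Nkd1 had 0 counts in every library, Rnf43 had 2 counts over the KO libraries and 1 over WT, and Notum, an esterase that inactivates Wnts, had 2 in KO cells and 0 in WT cells. At these counts no difference between the genotypes was detectable. Nkd2, which binds Dishevelled, had 18, 17 and 20 counts in the KO libraries, against 7, 10 and 0 in WT cells (log2 fold change 1.66, SE 0.45, edgeR adjusted p = 0.0012). Its size depends on the WT library at 0, and without WT replicate 3 the log2 fold change was 1.07 (edgeR adjusted p = 0.035), while without WT replicate 2 it was 2.24. Znrf3, a ubiquitin ligase that removes frizzled from the surface, averaged 34.5 ± 1.4 CPM in KO cells and 28.6 ± 1.2 CPM in WT cells (1.21-fold higher, SE 0.06, edgeR adjusted p = 1.7e-05). Apcdd1, a membrane inhibitor and the most abundant feedback gene per length, had 25.7, 25.3 and 27.3 CPM in the KO libraries, against 33.1, 29.3 and 28.9 CPM in WT cells (1.16-fold lower, SE 0.06, edgeR adjusted p = 0.0012). The 3 testable feedback genes did not share a direction.

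The rest of the pathway was followed in 4 lists of genes outside the 56, against the called share of 61.4% over all tested genes. Of all tested genes, 30.3% were higher and 31.2% lower. Over all tested genes, 29.6% of the higher genes lie on chromosomes 3, 5 or 12 and 14.8% of the lower genes on chromosome 2. Of 23 secretion and surface partners, 14 were tested, 5 rose and 7 fell (median log2 change −0.22). The glypican gene Gpc4, a heparan sulfate carrier that binds Wnts, averaged 0.819 ± 0.079 CPM in KO cells and 34.0 ± 2.7 CPM in WT cells (log2 fold change −5.37, SE 0.12, edgeR adjusted p = 4.9e-50). R-spondin receptor genes went opposite ways, with Lgr6 2.43-fold higher (72.3 ± 1.8 CPM in KO cells and 29.8 ± 0.9 CPM in WT cells) and Lgr4 lower, at a log2 fold change of −0.68 (72.9 ± 2.6 CPM in KO cells and 117 ± 5 CPM in WT cells). The syndecan gene Sdc4 fell 1.53-fold (SE 0.03), to 181 ± 7 CPM in KO cells, against 276 ± 7 CPM in WT cells. Lgr4 and Sdc4 are the 2 of the 7 that fell on chromosome 2, whose median log2 change was −0.24, and of the 5 that rose, 2 are on chromosomes 3, 5 or 12. Of the R-spondins themselves only Rspo2 was testable, at 0.534 ± 0.135 CPM in KO cells and 0.741 ± 0.146 CPM in WT cells (edgeR adjusted p = 0.21). Sost, Kremen2 and Rspo1 had 0 counts.

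Of 38 genes of the cytoplasmic and nuclear beta-catenin machinery, 36 were tested, 12 rose and 10 fell (median log2 change 0.05). A called change of at least 1.5-fold was seen for 15.9% of all tested genes. In the other lists it was seen for 4 of 14 secretion and surface partners, 6 of 15 beta-catenin targets and 7 of 32 polarity and calcium genes. In the machinery list it was seen for 3 of the 36, all decreases. These genes, named after their values were seen, were Cxxc4 (1.03 ± 0.40 CPM in KO cells and 3.13 ± 0.16 CPM in WT cells) and Tle2 (3.65 ± 0.82 CPM in KO cells and 7.69 ± 1.49 CPM in WT cells), which encode inhibitors of the pathway, and Frat2 (0.826 ± 0.189 CPM in KO cells and 1.29 ± 0.23 CPM in WT cells), whose product binds GSK3 and whose genotypes overlapped (edgeR adjusted p = 0.036). The 4 with the smallest adjusted p were Pygo2 (1.45-fold higher, SE 0.04) and Bcl9 (1.29-fold higher, SE 0.04), which encode beta-catenin co-activators, and the co-repressor components Ctbp1 (1.25-fold higher, SE 0.03) and Tbl1xr1 (1.23-fold higher, SE 0.03). These 4 are on chromosomes 3 and 5, whose medians were 0.30 and 0.19, and none of the other 8 that rose is on chromosomes 3, 5 or 12. None of the 10 that fell is on chromosome 2. The kinase gene Gsk3b (log2 fold change 0.05, edgeR adjusted p = 0.20) and Apc (0.05, edgeR adjusted p = 0.19) did not pass the test.

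Of 28 widely used beta-catenin target genes, 15 were tested, 10 rose and 4 fell (median log2 change 0.39, and 0.39 among the 9 off chromosomes 2, 3, 5 and 12). The 4 with the smallest adjusted p were the AP-1 gene Fosl1 (1.67-fold higher, SE 0.03, with 189 ± 8 CPM in KO cells and 113 ± 2 CPM in WT cells), the matricellular genes Wisp2 (2.37-fold lower, SE 0.06, with 18.2 ± 0.6 CPM in KO cells and 43.1 ± 1.7 CPM in WT cells) and Wisp1 (1.78-fold lower, SE 0.05), and Id2, an inhibitor of basic helix-loop-helix factors (1.55-fold higher, SE 0.04). Wisp2 lies on chromosome 2 and Id2 on chromosome 12. Of the 10 that rose, 3 are on chromosomes 3, 5 or 12, and of the 4 that fell, 2 are on chromosome 2. Nrcam, among those that rose, had 16, 12 and 17 counts in the KO libraries and 1, 9 and 1 in WT cells. It passed the count filter only with its higher KO libraries counted, so the tally and the median favour a rise there. Ccnd1, the cyclin D1 gene, had 1153 ± 10 CPM in KO cells and 881 ± 16 CPM in WT cells (log2 fold change 0.39, edgeR adjusted p = 7.7e-20). Myc had 109 ± 2 CPM in KO cells and 93.4 ± 1.7 CPM in WT cells (log2 fold change 0.22, edgeR adjusted p = 2.0e-07). These genes answer to many other pathways as well. Sp5 and Tnfrsf19 had 0 counts in every library, and Lgr5 had 5 counts over the KO libraries and 4 over WT. In all, 7 of the 28 had 0 counts throughout.

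Of 36 genes of the planar polarity and calcium branches, 32 were tested, 13 rose and 7 fell (median log2 change 0.11). The calcium kinase gene Camk2d (log2 fold change 0.68, SE 0.03, with 274 ± 1 CPM in KO cells and 171 ± 3 CPM in WT cells) and the formin gene Daam2 (1.64-fold higher, SE 0.04) rose, and the phospholipase gene Plcb1 (2.40-fold lower, SE 0.07, with 12.2 ± 0.2 CPM in KO cells and 29.3 ± 1.8 CPM in WT cells) and the polarity gene Prickle2 (2.01-fold lower, SE 0.09) fell. Camk2d lies on chromosome 3, whose median was 0.30, and Plcb1 on chromosome 2, whose median was −0.24. Of the 13 that rose, 6 are on chromosomes 3, 5 or 12, against 29.6% of all higher genes. Of the 7 that fell, 3 are on chromosome 2, against 14.8% of all lower genes. In each list the called genes went both ways, as they did over all tested genes.

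**Figure D4:**
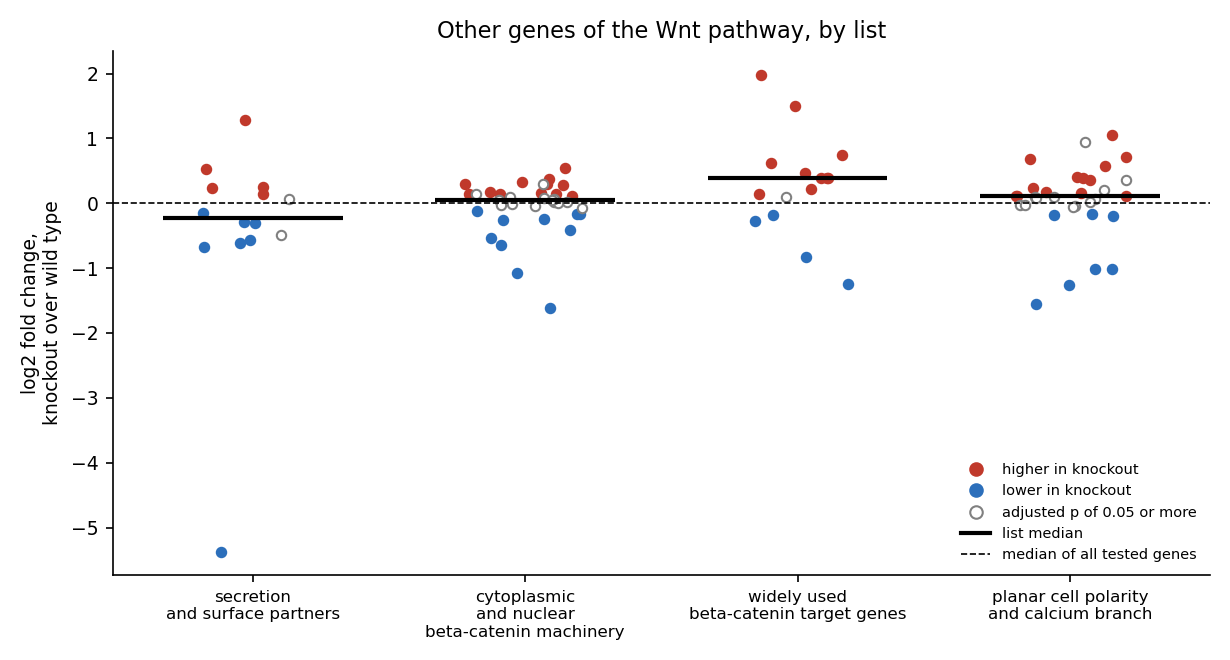
Log2 fold change, KO over WT, of the tested genes in 4 lists of other Wnt pathway genes, with a point per gene. Thick lines are list medians, from −0.22 for secretion and surface partners to 0.39 for beta-catenin targets, and the dashed line is the median of all tested genes, 0.004. The lowest point is Gpc4 at −5.37.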

How the data were processed

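Per the labels' protocols, the KAPA stranded kit with ribosomal RNA depletion was used. The table the authors deposited holds raw counts of reads for each gene, with exon coordinates and gene length. The submitters' processing notes name STAR 2.6.1d, featureCounts 1.6.3 and mm10 or GRCm38, with no role per file. For the strand setting and for reads with several alignments, nothing is given in the sources used here. Counts of downstream-of-gene regions, deposited without gene names, were not used.

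Groups and replicate numbers came from the sample titles. All 24421 genes were fitted together with edgeR 4.0.16 in R 4.3.3 (TMM scaling, filterByExpr at its default count minimum of 10 and total of 15, robust quasi-likelihood F test, two-sided, Benjamini-Hochberg over 12947 genes, adjusted p under 0.05). Each SE was taken as |log2 fold change| over the root of F. Levels of different genes were compared as CPM per kilobase of deposited length. Within-genotype libraries differed by more than counting noise (chi-square per gene 2.02 to 6.21), so none was counted as a duplicate. These values include Rn45s, which alone held 7.28% to 8.91% of gene counts in the WT libraries and adds to their upper end. The spread between replicates beyond counting noise, as edgeR's common coefficient of variation, was only 3.0%.

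The members and lists were chosen with earlier results of these data known. Values are given for every called member of at least 1.5-fold, the most abundant member per length of each role, and up to 4 genes of each other list with the smallest adjusted p. Further genes were named after their values were seen. Gene symbols are those of the deposited table, and promoter windows are from RefSeq (GRCm38.p6). Alternatives were RLE factors, no filter, limma-voom (limma 3.58.1), DESeq2 1.42.0, a minimum of 1 CPM in 3 libraries, the replicate block, no Rn45s, subtraction of chromosome medians, and leaving out each library.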

Additional observations from a re-analysis of the deposited data

How the results depend on the processing

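The counts of called Wnt genes stayed within 1.5 times of 20 in all 13 alternative fits, from 18 with the filter at 1 CPM to 21 with no filter, and of the 20 called genes, 17 were called in the same direction in every fit. The other 3 were Wnt5b, Nkd2 and Tcf7l2: the filter at 1 CPM removed Wnt5b and Nkd2, DESeq2 gave Wnt5b an adjusted p of 0.064, and the losses without a library are given with those genes. Limma-voom gave Nkd2 a log2 fold change of 2.44. With the replicate number as a block, 20 Wnt genes and 7816 genes in all were called, against 20 and 7955 without it, and no call of a Wnt gene changed. Deviations from the genotype means of same-numbered libraries had a correlation of −0.03 in each of the 3 pairs, so no shared deviation was seen. This cannot tell whether same-numbered libraries were grown or prepared together. Leaving out a library in turn called 19 to 20 Wnt genes and 7387 to 7677 genes in all. DESeq2 called 19 Wnt genes and 7027 genes in all. Subtraction of the chromosome median reversed no called Wnt gene, but 12 of the 29 values moved by at least the pooled SD of the libraries within genotypes on the log2 scale. Lef1 (0.49) and Lrp5 (0.48) came below 1.5-fold, Fzd1 came to −0.46, Tcf7l2 to −0.22 and Apcdd1 to −0.12. Genes below about 1 CPM rest on few counts, and for the 27 untested genes only large differences could have been seen.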
